A study of Mus musculus with 18 samples.

Results

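The chemokines that macrophages secrete were followed in bone marrow-derived macrophages exposed to modified LDL: 7 CC chemokines (Ccl2, Ccl3, Ccl4, Ccl5, Ccl6, Ccl7, Ccl9) and 3 CXC chemokines (Cxcl1, Cxcl2, Cxcl3). They were chosen by gene name and make up 10 of the 31053 genes listed. Of these 10, 8 passed the filter on low counts and were tested beside 12290 genes in all, whereas Ccl7 and Cxcl3 were too low to be tested and are given by their counts. The transcript of Ccl9 was far above the rest in every library and was lower with OxLDL in both genotypes. The call in wild type cells was lost when certain single libraries were left out. Cxcl1 and Cxcl2 were low and were below their control in each mouse with either LDL. For Cxcl1 in wild type mouse 3 with AcLDL, this came from the scaling to library size alone. None of these differences passed the adjusted threshold in the main test, and only some of those of Cxcl2 passed under other settings. No chemokine differed detectably between Slc7a7 knockout and wild type cells.

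The macrophages came from 3 Slc7a7+/+ (wild type, WT) and 3 Slc7a7-/- (knockout, KO) mice, 12 weeks old and on the C57Bl/6J background, and cells of each mouse were divided over 3 media, giving 18 libraries in 6 groups of 3. For 24 h they received vehicle (PBS, the control), acetylated LDL (AcLDL) at 50 μg/mL or oxidized LDL (OxLDL) at 100 μg/mL, so that the doses of the LDL forms differ and their results are set side by side without a test between them. The deletion of Slc7a7, a cationic amino acid transporter subunit, is driven by LysM-Cre, which is expressed from the Lyz2 locus in myeloid cells; whether the wild type mice also carried the Cre is not given in the sources used here. All cells were grown with recombinant macrophage colony-stimulating factor or L-cell conditioned medium, and which library had which is not given in the sources used here.

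Chemokines are small secreted proteins that guide the migration of leukocytes through receptors coupled to G proteins. Macrophages that meet a microbial or inflammatory signal switch many of them on through the transcription factors NF-κB and AP-1, and the messages of several are short-lived. In the arterial wall, macrophage chemokines draw in further monocytes. Ccl2 and Ccl7 attract monocytes through Ccr2, Ccl3, Ccl4 and Ccl5 attract monocytes and T cells, and Ccl6 and Ccl9 are mouse chemokines of myeloid cells that act on Ccr1. Cxcl1, Cxcl2 and Cxcl3 attract neutrophils through Cxcr2.

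The members lie in 2 clusters of the mouse genome (GRCm38). The 7 CC genes span 1629 kb of chromosome 11, with Ccl9 at chr11:83572919-83578636 and Ccl6 at chr11:83587882-83593087, both on the minus strand and 9.245 kb apart, and the 3 CXC genes span 119.8 kb of chromosome 5, with Cxcl1 at chr5:90891241-90893115 and Cxcl2 at chr5:90903871-90905938 on the plus strand. RefSeq promoters (GRCm38.p6, windows of 300 bases, from 250 before to 50 after the start) were at hand for 6 of the 10 members: Ccl3, Ccl6, Ccl9, Cxcl1, Cxcl2 and Cxcl3. The 250 bases before the RefSeq start are shown, 5′ to 3′ on the strand of the gene, for Cxcl1, Cxcl2 and Ccl9, the members that were lower in each mouse with either LDL, and for Ccl6, the neighbour of Ccl9. The RefSeq starts differ a little from the gene starts given above, so that the last 4 bases shown for Cxcl1 and the last 28 for Cxcl2 lie inside these genes as annotated. Capitals mark matches to the NF-κB consensus on either strand.
Cxcl1, chr5:90890995-90891244, plus strand: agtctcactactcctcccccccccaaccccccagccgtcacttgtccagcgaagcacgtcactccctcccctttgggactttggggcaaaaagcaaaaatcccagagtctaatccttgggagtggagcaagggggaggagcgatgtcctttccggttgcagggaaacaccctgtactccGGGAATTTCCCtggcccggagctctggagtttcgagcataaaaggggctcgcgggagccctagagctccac
Cxcl2, chr5:90903649-90903898, plus strand: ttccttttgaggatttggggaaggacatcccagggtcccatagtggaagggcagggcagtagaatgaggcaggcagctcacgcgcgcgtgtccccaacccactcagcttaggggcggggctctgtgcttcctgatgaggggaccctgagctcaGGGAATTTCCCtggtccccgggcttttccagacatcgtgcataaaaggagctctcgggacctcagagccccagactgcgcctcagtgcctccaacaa
Ccl9, chr11:83578637-83578886, minus strand: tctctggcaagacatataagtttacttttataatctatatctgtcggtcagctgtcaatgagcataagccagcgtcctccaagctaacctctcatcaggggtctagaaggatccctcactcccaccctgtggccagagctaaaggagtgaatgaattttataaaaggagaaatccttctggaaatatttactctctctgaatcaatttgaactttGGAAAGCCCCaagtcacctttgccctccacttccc
Ccl6, chr11:83593088-83593337, minus strand: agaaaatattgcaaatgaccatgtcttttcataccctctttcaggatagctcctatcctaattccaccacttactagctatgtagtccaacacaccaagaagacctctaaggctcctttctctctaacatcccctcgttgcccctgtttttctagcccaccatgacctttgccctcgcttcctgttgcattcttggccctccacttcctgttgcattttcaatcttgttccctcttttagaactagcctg

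Cxcl1 and Cxcl2 carry the same run of 11 bases, GGGAATTTCCC, as does Cxcl3, and it matches the consensus on both strands with matches that overlap. Counted from the annotated gene starts, it begins 67 bases before Cxcl1, 69 before Cxcl2 and 75 before Cxcl3, and from the RefSeq starts 71, 97 and 73 bases before them. This run stood in 14 of 32851 mouse promoter windows (0.0426%), the 3 CXC members included. The match of Ccl9, GGAAAGCCCC, starts 35 bases before the gene and fits the consensus on the opposite strand. In all, 4 of the 6 members' windows held a match (Ccl9, Cxcl1, Cxcl2, Cxcl3), against 4.51% of all windows. The AP-1 motif TGANTCA stood in that of Ccl9 alone among the 6 (7.81% of all windows), and TATAAA in those of Ccl9 and Cxcl3 (13.6%), both searched on both strands. The promoters of Cxcl1 and Cxcl2 were alike over an aligned stretch of 177 columns, 74% of them identical, and those of Ccl9 and Ccl6 over 74 columns, 79.7% of them identical. These matches are descriptions of letters and not of binding.

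Levels are given as counts per 1000000 (CPM), scaled by TMM factors (trimmed mean of M values, edgeR), as mean ± SD of the 3 mice. Total counts per library ran from 1043492 to 1768816 (median 1466145), so that 1 count stood for 0.555 to 0.949 CPM and 3 counts, taken as the floor, for 1.67 to 2.85 CPM. Slc7a7, which checks the labels, stood at 2.22 to 10.9 CPM in the KO libraries and at 11.1 to 29.3 CPM in the WT libraries, without overlap but by a narrow margin. Its group means in WT and KO cells were 14.9 and 6.58 CPM in control medium, 25.3 and 3.27 with AcLDL and 28.0 and 9.91 with OxLDL. The transcript was thus lower in KO cells and not absent. The KO to WT difference of Slc7a7 passed with AcLDL (adjusted p = 0.000472) and fell short in control medium (adjusted p = 1) and with OxLDL (adjusted p = 0.276). The sample numbers in the column names run through all WT libraries before the KO libraries. What this order stands for is not given in the sources used here, and anything that went with it cannot be told apart from the genotype. All 10 macrophage markers were detected in each group, whereas the summed levels of dendritic (at most 5.20 CPM), T, B and NK (at most 1.30 CPM) and mast cell and basophil markers (at most 1.68 CPM) were near 0, as were those of erythroid markers (at most 2.19 CPM). Stromal markers summed to at most 26.0 CPM, and megakaryocyte and platelet markers to 12.1 to 29.5 CPM, most of it Pf4. Neutrophil markers summed to 25.5 to 252 CPM, with 6 to 8 of the 10 detected in each group and Retnlg and Ly6g at 0 in every library. Monocyte markers summed to 68.7 to 156 CPM. In these bulk libraries, fewer cells of a type and less RNA per cell cannot be told apart.

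Compared per kilobase of exon, Ccl9 was the most abundant of the 10 chemokines, with a mean of 257 CPM per kb over the 18 libraries (169 to 359). Ccl6 followed with 38.9 CPM per kb, Ccl3 with 20.3 and Ccl4 with 13.8. This order held in 18 of 18 libraries between Ccl9 and Ccl6 and between Ccl6 and Ccl3, and in 16 of 18 between Ccl3 and Ccl4. Next came Cxcl2 at 5.40, Ccl2 at 4.48, Ccl5 at 1.81 and Cxcl1 at 1.26 CPM per kb. Cxcl2 was above Ccl2 in 11 of 18 libraries and Ccl5 above Cxcl1 in 10 of 18, so these neighbours did not differ beyond their spread. The exons of the annotated transcripts of Cxcl1, Cxcl2 and Cxcl3, as a union, cover the whole gene, which lowers their values on the scale per kb. Without the length correction, Ccl9 alone took 82.9% to 90.3% of the summed CPM of the 10 chemokines in each library.

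Ccl7 and Cxcl3 were barely detected. Ccl7 had 13 counts in all, with 0 in 9 of the 18 libraries and at most 3 in any, and Cxcl3 had 5 counts, with 0 in 14 libraries and at most 2 in any. Both lie at or under the floor of 3 counts in each library, and a change in either was not detectable at this depth. Of the distinct sequence words of 31 bases in Cxcl2, 7.59% also occur in another gene, and 161 such words are shared with Cxcl3, so that a small part of their reads could have been assigned to either.

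With OxLDL, Ccl9 fell in both genotypes. In WT cells it stood at 773, 1093 and 1009 CPM in the controls of mice 1, 2 and 3 and at 700, 515 and 668 CPM with OxLDL. Every OxLDL library was lower than every control library, although the control of mouse 1 came near to the OxLDL range. The mean went from 958 ± 166 to 627 ± 98.8 CPM, 1.53-fold lower (log2 fold change -0.61, SE 0.15, adjusted p = 0.0426 by edgeR's quasi-likelihood test). In KO cells the controls stood at 1080, 1015 and 1075 CPM and the OxLDL libraries at 727, 542 and 547 CPM, again without overlap. Here the mean went from 1057 ± 36.5 to 605 ± 106 CPM, 1.75-fold lower (log2 fold change -0.80, SE 0.15, adjusted p = 0.00302). The call in KO cells held under each of 13 other settings (adjusted p at most 0.0368). The WT call rested on single libraries: it was lost without WT control 2 (adjusted p = 0.274), WT control 3 (0.144), WT OxLDL 2 (0.154) or WT OxLDL 3 (0.0832), and when only the libraries compared were fitted (0.398).

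With AcLDL, Ccl9 was lower as well, short of the threshold. WT cells with AcLDL stood at 716, 814 and 706 CPM, between and below the controls, with a mean of 745 ± 59.9 CPM (log2 fold change -0.36, SE 0.15, adjusted p = 0.565). KO cells with AcLDL lay close together at 697, 700 and 707 CPM, a mean of 701 ± 5.18 CPM, and all were below the KO controls (log2 fold change -0.59, SE 0.15, adjusted p = 0.0932). Since cells of each mouse went into all 3 media, the mouse can be fitted as a block. With this replicate block the KO AcLDL difference passed (log2 fold change -0.59, adjusted p = 0.00105) and the WT AcLDL difference did not (-0.36, adjusted p = 0.0938), while both OxLDL calls held (adjusted p = 0.000374 in WT and 2.46e-06 in KO). Each LDL form is compared with the same control libraries, so the AcLDL and OxLDL values are not independent of each other.

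Ccl6, the neighbour of Ccl9, is the second most abundant of the family. Its WT controls stood at 39.0, 81.7 and 83.1 CPM, its WT AcLDL libraries at 50.3, 76.8 and 83.6 CPM and its WT OxLDL libraries at 52.9, 60.5 and 68.5 CPM. The KO controls stood at 76.0, 72.4 and 87.0 CPM, the KO AcLDL libraries at 81.2, 78.9 and 75.4 CPM and the KO OxLDL libraries at 53.9, 60.9 and 75.7 CPM. All groups overlapped within a genotype. Its log2 fold changes were 0.04 (95% interval -0.40 to 0.49) with AcLDL and -0.18 (-0.63 to 0.27) with OxLDL in WT cells. In KO cells they were -0.00 (-0.42 to 0.42) with AcLDL and -0.29 (-0.73 to 0.14) with OxLDL. These intervals hold changes as large as some of those of Ccl9, and the difference between the 2 genes was not tested. The gene shares its locus with E230016K23Rik on the other strand, and the strand setting of the counting is not given in the sources used here.

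The neutrophil chemokines Cxcl2 and Cxcl1 had the lowest fold changes of the 8 tested members in each LDL comparison. Cxcl2 stood at 11.1, 30.0 and 19 CPM in the WT controls, at 2.85, 14 and 8.16 CPM with AcLDL and at 0, 7.41 and 11.1 CPM with OxLDL. In KO cells it stood at 16.9, 18 and 24.5 CPM in the controls, at 4.73, 11.7 and 6.96 CPM with AcLDL and at 3.37, 2.05 and 9.25 CPM with OxLDL. The KO groups with LDL did not overlap with their controls, nor did WT OxLDL, though by a narrow margin, whereas WT AcLDL did. The log2 fold changes were -1.23 (SE 0.54, adjusted p = 0.588) with AcLDL and -1.61 (SE 0.55, adjusted p = 0.218) with OxLDL in WT cells. In KO cells they were -1.29 (SE 0.51, adjusted p = 0.494) and -1.92 (SE 0.56, adjusted p = 0.0791). With the mouse as replicate block, Cxcl2 passed with OxLDL in both genotypes (adjusted p = 0.00862 in WT and 0.00105 in KO) and with AcLDL in KO (adjusted p = 0.0451), and did not with AcLDL in WT (adjusted p = 0.0905).

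Cxcl1 stood near the floor. Its counts were 7, 5 and 4 in the WT controls, 2, 4 and 4 with AcLDL and 0, 2 and 1 with OxLDL. In KO cells they were 6, 11 and 5 in the controls, 0, 3 and 1 with AcLDL and 2, 3 and 1 with OxLDL. Each library of the latter 2 KO groups and of WT OxLDL was below every control library of its genotype. With the counts of a group summed, the ratio to control per unit of library size was 0.626 (95% exact interval of counting error 0.254 to 1.47) for WT AcLDL and 0.170 (0.0318 to 0.596) for WT OxLDL. In KO cells the ratio was 0.183 (0.0458 to 0.539) for AcLDL and 0.301 (0.0997 to 0.764) for OxLDL. These intervals leave out the spread between mice. In the fit across all genes, none of the 4 comparisons of Cxcl1 passed by edgeR (adjusted p from 0.196 to 0.911), nor did any with the replicate block (0.130 to 0.826).

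Within each mouse, Ccl9, Cxcl1 and Cxcl2 were lower than the mouse's own control with AcLDL and with OxLDL in all 6 mice. Of all genes tested, 3.08% met this, 378 of 12290, against 3 of the 8 members. For Cxcl1 this rests on values near the floor: in WT mouse 3 the counts with AcLDL and in the control were both 4, and the difference of -0.07 comes from the scaling to library size. The within-mouse differences of Ccl9, on a log2 CPM scale with a prior count of 2, ran from -0.51 to -0.11 in WT and from -0.63 to -0.53 in KO cells with AcLDL. With OxLDL they ran from -1.08 to -0.14 in WT and from -0.97 to -0.57 in KO cells. Those of Cxcl2 were wider, from -3.18 to -0.71 with OxLDL in WT cells.

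**Figure D1:**
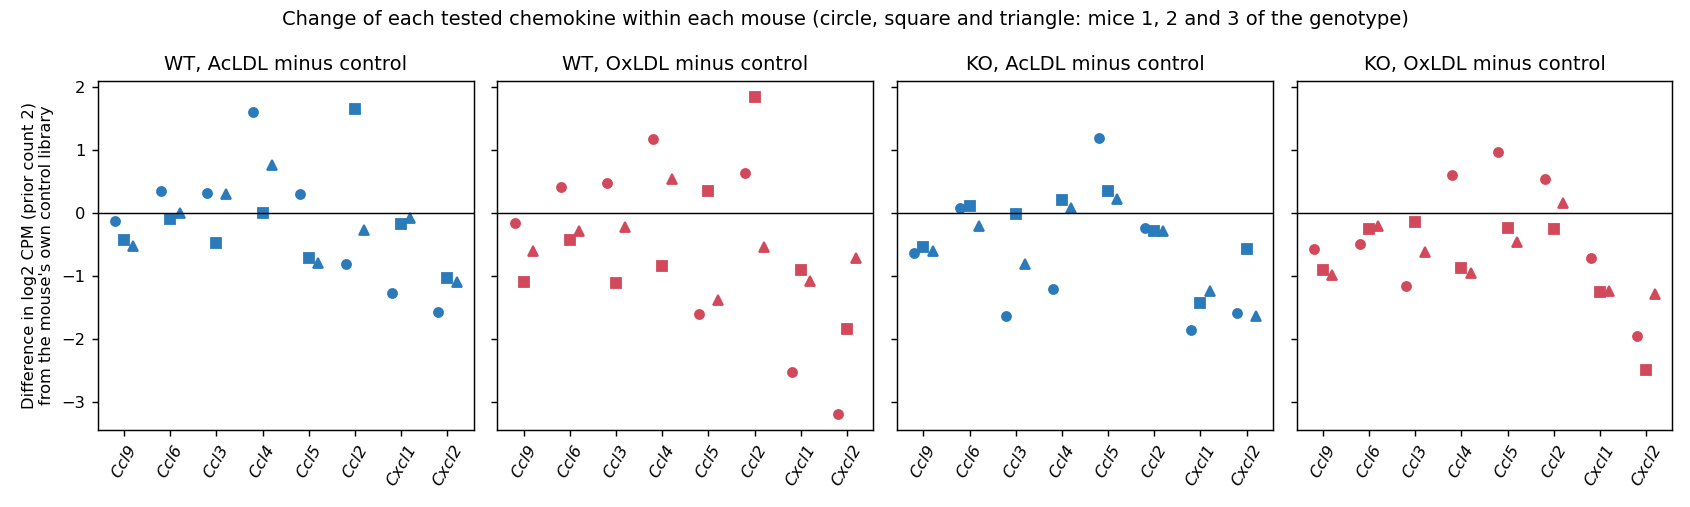
Difference of each LDL library from the control library of the same mouse (y axis, log2 CPM, prior count 2) for the 8 tested chemokines (x axis), in 1 panel per genotype and LDL. Each symbol is 1 mouse. Ccl9, Cxcl1 and Cxcl2 lie below 0 in 3 of 3 mice in each panel, whereas Ccl2, Ccl3, Ccl4, Ccl5 and Ccl6 lie on both sides of it in WT OxLDL. In other panels some of these 5 lie on 1 side in 3 of 3 mice. Below 0 are Ccl2 in KO AcLDL, Ccl3 in KO AcLDL and KO OxLDL, and Ccl6 in KO OxLDL. Above 0 are Ccl4 in WT AcLDL and Ccl5 in KO AcLDL.

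The remaining CC chemokines did not pass in any comparison. Ccl3, a ligand of Ccr1, stood at 22.3, 17.3 and 19.3 CPM in the KO controls, at 6.30, 17.2 and 10.4 CPM with AcLDL and at 9.26, 15.7 and 12.1 CPM with OxLDL. All KO libraries with LDL were below the controls, by a narrow margin in mouse 2 with AcLDL (log2 fold change -0.75, SE 0.33, adjusted p = 0.586, and -0.65, SE 0.33, adjusted p = 0.446). In WT cells the Ccl3 controls alone ran from 11.1 to 29.3 CPM, and the log2 fold changes were -0.06 and -0.45. Ccl4, its neighbour on the opposite strand, ran from 2.36 to 14.5 CPM over all libraries, with log2 fold changes between -0.45 and 0.64. The monocyte attractant Ccl2 had 2 to 17 counts a library, and Gm17268, which overlaps it on the other strand, was listed at 0 in all of them. Its highest values, 15.2 and 8.64 CPM, were in WT OxLDL, where mouse 3 stood at 2.61 CPM (log2 fold change 0.82, SE 0.56, adjusted p = 0.720). Ccl5 had at most 5 counts in a library, and its 95% intervals for LDL against control reached from -2.91 to 2.75 on the log2 scale.

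Counted over the 8 tested members, 0 were called with AcLDL and 1 with OxLDL in WT cells, and 0 with AcLDL and 1 with OxLDL in KO cells, at an adjusted p under 0.05. Over all 12290 genes, 0.472%, 1.34%, 0.521% and 2.32% were called in the same order. At an unadjusted p under 0.05 the members numbered 2, 3, 4 and 3, against 7.33%, 10%, 7.53% and 12.3% of all genes. DESeq2 called 0, 1, 1 and 2 of them, against 0.602%, 1.49%, 0.618% and 2.43% of all genes. EdgeR with the mouse as replicate block called 0, 2, 2 and 2, against 2.16%, 4.39%, 2.5% and 7.18%. Members whose LDL libraries were all lower than every control library numbered 0, 3, 4 and 4, against 5.48%, 6.17%, 9.37% and 11.6% of all genes. In the other direction 0 members were higher, but the share of all genes higher in this way was not counted, so this 0 has no baseline. The median log2 fold change of the 8 was -0.21, -0.53, -0.46 and -0.55, beside medians between -0.00 and 0.01 over all genes tested.

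No chemokine was called between the genotypes. In control medium Ccl9 stood at 958 ± 166 CPM in WT and 1057 ± 36.5 CPM in KO cells (log2 fold change 0.14, 95% interval -0.17 to 0.45). With AcLDL the KO to WT difference of Ccl9 was -0.09 (-0.40 to 0.23), and with OxLDL -0.05 (-0.37 to 0.26). Cxcl2 was nearly level in control medium, at 20.03 ± 9.48 and 19.8 ± 4.12 CPM (log2 fold change -0.05, 95% interval -1.01 to 0.91). For Cxcl1 and Ccl5 the intervals spanned several log2 units, so that a difference of that size was not detectable at this depth. By edgeR, 0 of 8 members passed in control medium, AcLDL and OxLDL, where 0.00814%, 0.0163% and 0.00814% of all genes did, and 0 reached an unadjusted p under 0.05, against 4%, 4.89% and 4.78% of all genes. DESeq2 called 0 in each as well, against 0.0244%, 0.0488% and 0.00814%.

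The response to LDL was also compared between the genotypes by an interaction term. For Ccl9 the KO minus WT difference of the log2 response was -0.23 (95% interval -0.67 to 0.22) with AcLDL and -0.19 (-0.64 to 0.25) with OxLDL. For Cxcl2 the differences were -0.06 (-1.61 to 1.49) and -0.31 (-1.98 to 1.37). In both interactions 0 of 8 members were called by edgeR, by DESeq2 or with the replicate block, and 0 reached an unadjusted p under 0.05. Of all genes, edgeR called 0% in both, DESeq2 0.00814% for AcLDL and 0% for OxLDL, and edgeR with the block 0.0407% and 0%, while 2.66% and 2.75% reached an unadjusted p under 0.05. A drop of Ccl9 in one genotype past the threshold and in the other short of it, as with the block and AcLDL, is thus not shown to differ between them.

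**Figure D2:**
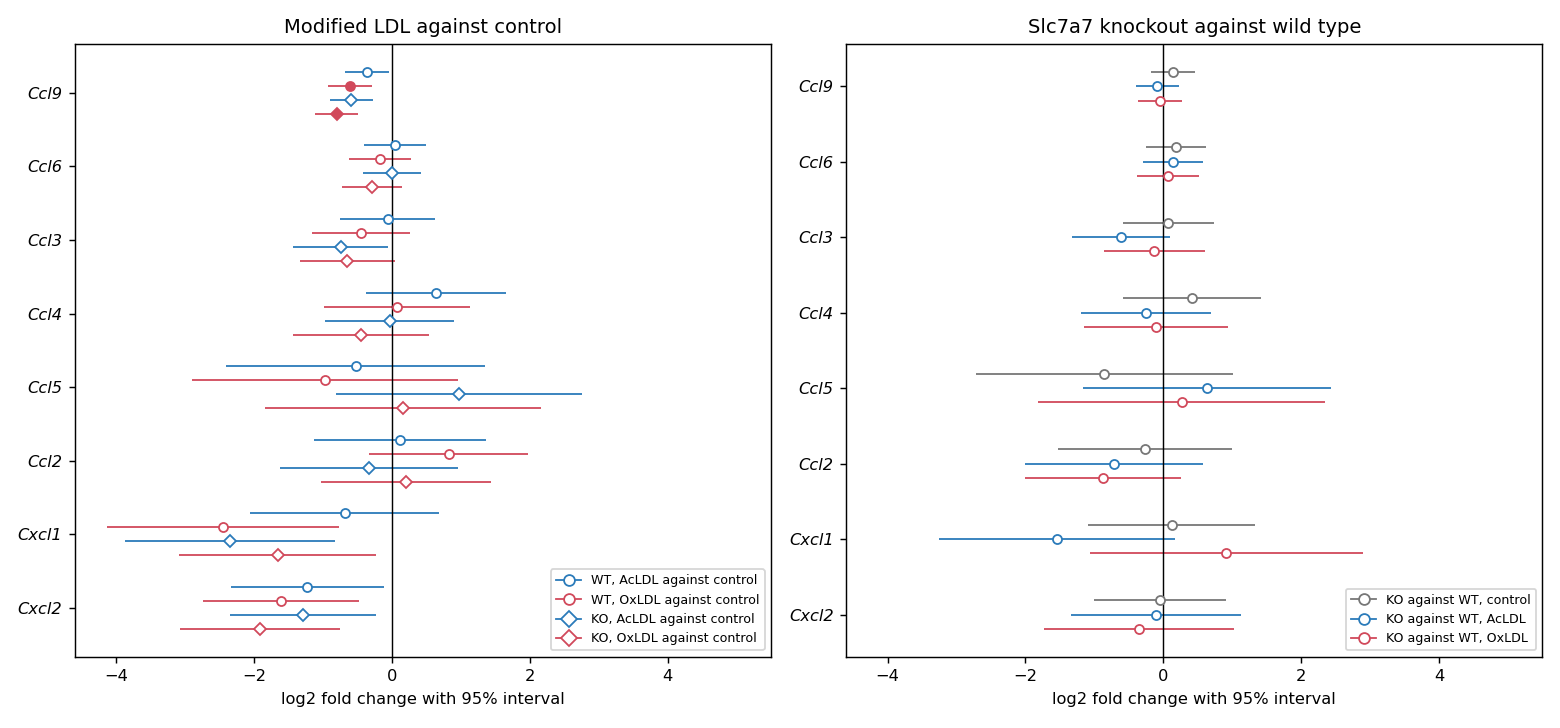
Fitted log2 fold changes of the 8 tested chemokines (y axis) with their 95% intervals (x axis), for LDL against control on the left and for KO against WT on the right; filled symbols passed an adjusted p of 0.05. Only Ccl9 with OxLDL is filled, at -0.61 in WT and -0.80 in KO cells, and on the right each interval spans 0.

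Some values moved with these differences. The 10 macrophage markers summed to 17874 to 21335 CPM in the KO controls and 12764 to 14748 CPM in KO OxLDL, without overlap, whereas the ranges overlapped in WT cells (24960 to 35575 and 21451 to 30518 CPM). Without Lyz2, whose locus drives the Cre, the KO ranges were 5997 to 7069 and 4270 to 5320 CPM, and the WT ranges 4463 to 7035 and 3589 to 5908 CPM. Neutrophil markers summed to 73.6 to 127 CPM in WT controls and 144 to 252 CPM in WT OxLDL, and to 52.0 to 141 and 62.9 to 114 CPM in KO cells. Megakaryocyte and platelet markers summed to 12.6 to 22.3 CPM in WT controls and 26.9 to 28.4 CPM in WT OxLDL, without overlap, and to 12.1 to 21.05 and 20.5 to 29.5 CPM in KO cells, with 2 of the 4 markers or more at 0 in every group but WT OxLDL. Most of the megakaryocyte and platelet sum was Pf4, a gene that is also in the list of other chemokine ligands below. Pf4 stood at 10.9 to 22.3 CPM in WT controls and 26.0 to 27.4 CPM in WT OxLDL. In KO cells it stood at 12.1 to 21.05 CPM in controls and 20.5 to 28.9 CPM with OxLDL. The part of these markers in the chemokine values was not tested.

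Other genes of the chemokine system were read against the same shares of all genes, 0.472%, 1.34%, 0.521% and 2.32% by edgeR and 2.16%, 4.39%, 2.5% and 7.18% with the replicate block, in the order WT AcLDL, WT OxLDL, KO AcLDL and KO OxLDL. Of 28 other CC, CXC and related ligands, 9 passed the filter. Cxcl16, a membrane-bound chemokine that also serves as a scavenger receptor for oxidized LDL, fell with OxLDL from 283 ± 46.1 to 131 ± 11.5 CPM in WT cells (log2 fold change -1.11, SE 0.14, adjusted p = 2.67e-05) and from 315 ± 27.5 to 136 ± 8.79 CPM in KO cells (-1.21, SE 0.14, adjusted p = 5.61e-06). Cxcl10, an interferon-induced attractant of T cells, was low, at 6.61 ± 2.36 CPM in KO controls and 0.737 ± 0.690 CPM in KO OxLDL, where it just passed (adjusted p = 0.0498). No other tested gene of this list was called in an LDL comparison. With the replicate block 1, 2, 1 and 2 of the 9 fell in WT AcLDL, WT OxLDL, KO AcLDL and KO OxLDL. In WT OxLDL 1 rose, and 0 rose in the other comparisons. Of 24 receptors, 8 passed the filter, and Cx3cr1, the fractalkine receptor, fell with OxLDL in both genotypes. It went from 139 ± 13.8 to 30.4 ± 8.98 CPM in WT cells (log2 fold change -2.22, SE 0.22, adjusted p = 5.44e-07) and from 148 ± 11.3 to 38.8 ± 18.9 CPM in KO cells (-1.97, SE 0.21, adjusted p = 1.45e-06). With AcLDL it stood at 99.5 ± 8.32 and 116 ± 7.84 CPM and was not called. Of the 8 tested receptors, the replicate block called 1 higher and 1 lower in WT AcLDL and 1 lower in WT OxLDL. In KO cells it called 1 higher with AcLDL and 2 lower with OxLDL. Cx3cr1 was not among those called with AcLDL (adjusted p with the block 0.102 in WT and 0.248 in KO cells).

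All 31 genes of a list for the transcription of chemokine genes (NF-κB, AP-1 and partners) were tested. With AcLDL 1 fell in each genotype, Relb in WT and Nfkbia in KO cells. With OxLDL 7 fell in WT cells, and in KO cells 8 fell and 1, the AP-1 subunit Jun, rose from 144 ± 5.38 to 227 ± 30.0 CPM (log2 fold change 0.65, SE 0.13, adjusted p = 0.00555). Nfkbia, the inhibitor IκBα and itself a target of NF-κB, fell from 179 ± 27.8 to 90.8 ± 9.75 CPM in WT (log2 fold change -0.99, SE 0.15, adjusted p = 0.000246) and from 183 ± 11.8 to 93.6 ± 3.05 CPM in KO cells (-0.97, SE 0.15, adjusted p = 0.000229) with OxLDL. Nfkbie, another inhibitor of the family, changed by -1.18 and -1.10 on the log2 scale, Nfkb2 by -1.17 and -1.40, its partner Relb by -1.35 and -1.14, and the feedback inhibitor Tnfaip3 by -1.13 and -1.10, and all passed in both genotypes with OxLDL. Bcl3, a nuclear cofactor, passed in WT (-1.19, adjusted p = 0.0311) and not in KO cells (-0.95, adjusted p = 0.0905). With the block Bcl3 passed in KO OxLDL too (-0.93, adjusted p = 0.0238). With the replicate block the genes of this list that fell numbered 6 and 14 in WT and 10 and 13 in KO cells, with AcLDL and OxLDL, and those that rose 0 and 2 in WT and 1 and 2 in KO cells. Jun then rose in WT OxLDL (adjusted p = 0.0315) and KO AcLDL (adjusted p = 0.0460) as well. Rela, Rel, Nfkb1 and Atf3, also in this list, were not called by edgeR without the block in any LDL comparison. With OxLDL, Rela went from 58.0 to 54.0 CPM in WT and from 69.1 to 50.5 CPM in KO cells. Rel went from 80.6 to 73.3 and from 81.1 to 73.3 CPM, and Nfkb1 from 167 to 140 and from 170 to 151 CPM. Atf3 was higher, from 97.1 to 133 and from 135 to 183 CPM. The list median was -0.30, -0.37, -0.26 and -0.54 over WT AcLDL, WT OxLDL, KO AcLDL and KO OxLDL.

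Of 16 inflammatory cytokines and enzymes that are induced together with chemokines, 9 were tested. Acod1, the enzyme that makes itaconate, fell in all 4 LDL comparisons, in WT cells from 74.4 ± 28.8 CPM to 14 ± 6.66 with AcLDL and 3.20 ± 1.32 CPM with OxLDL (log2 fold changes -2.44 and -4.58). In KO cells it went from 72.7 ± 17 to 8.92 ± 3.27 and 3.68 ± 0.988 CPM (-3.06 and -4.28). Tnf passed with OxLDL in KO cells, from 44.3 ± 2.58 to 12.6 ± 6.18 CPM (log2 fold change -1.76, SE 0.30, adjusted p = 0.00103). With the replicate block Tnf passed in all 4 LDL comparisons (adjusted p at most 0.0109). Of 10 genes for the decay of chemokine mRNA, 0 passed by edgeR, with or without the block, and 0 to 2 reached an unadjusted p under 0.05. Zfp36l2, which binds AU-rich messages, ran between 345 and 373 CPM in the group means, Cnot1, the scaffold of the CCR4-NOT deadenylase, between 185 and 205 CPM, and Rc3h1 (Roquin) between 121 and 141 CPM. No gene of these 5 lists was called between the genotypes or in an interaction.

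**Figure D3:**
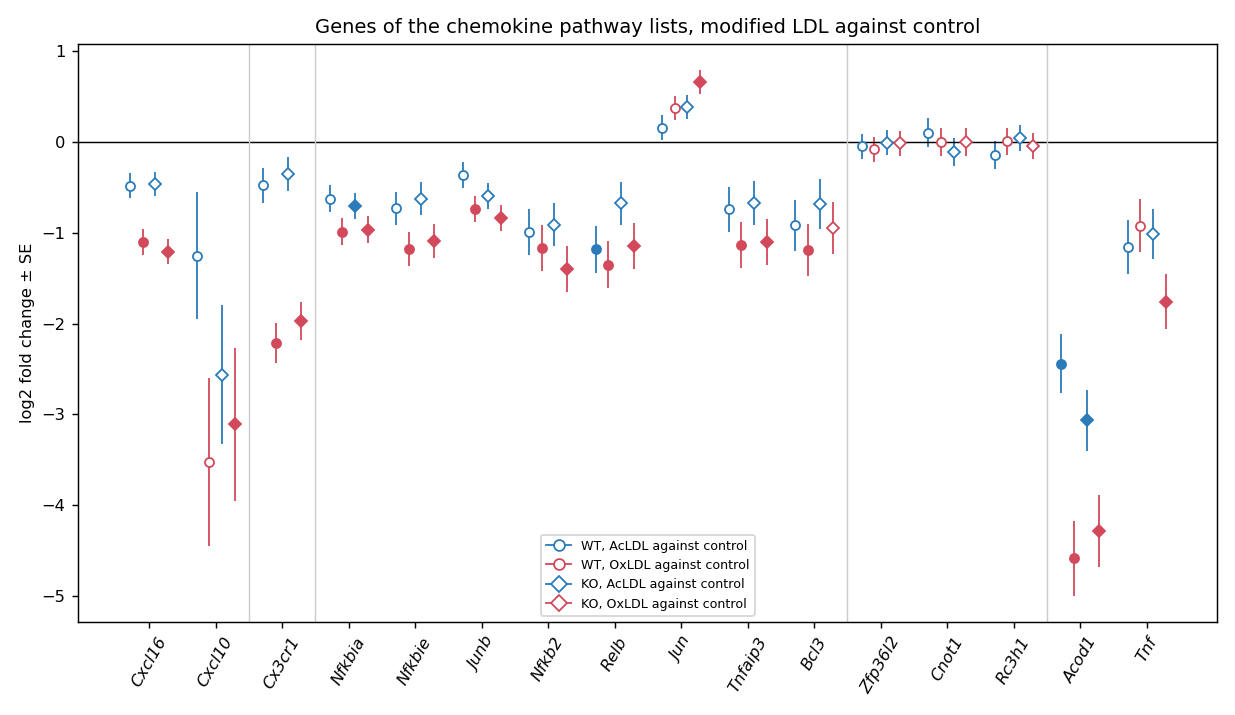
Log2 fold changes (y axis, ± SE) of the named genes of the 5 lists (x axis; other ligands, receptors, transcription, mRNA decay and cytokines from left to right, divided by grey lines) in the 4 comparisons of LDL with control; filled symbols passed an adjusted p of 0.05. Jun lies above 0, the 3 decay genes lie near 0, and Acod1 is lowest, at -4.58 in WT and -4.28 in KO cells with OxLDL.

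Over the 18 libraries, the 3 genes whose log2 CPM was most like that of Ccl9, among 6752 genes with a mean of at least 20 CPM, were Junb (Pearson r 0.956), Fgr (0.928) and Vasp (0.926). Junb, an AP-1 subunit, fell with OxLDL from 166 ± 31.1 to 100 ± 8.70 CPM in WT (log2 fold change -0.74, SE 0.14, adjusted p = 0.00527) and from 174 ± 8.99 to 97.9 ± 12.3 CPM in KO cells (-0.83, SE 0.14, adjusted p = 0.00101). Fgr, a Src family kinase, changed by -1.46 and -1.76 and Vasp, a regulator of actin, by -1.06 and -1.39 on the log2 scale with OxLDL. The genes most like Ccl6 were Kdm3b (r 0.867), H2-Ab1 (0.834) and Mpeg1 (0.828), none of which was called with LDL. Between members, the highest r were 0.635 for Ccl9 and Cxcl2, 0.611 for Cxcl1 and Cxcl2 and 0.600 for Ccl9 and Cxcl1. Ccl9, Cxcl1 and Cxcl2 are the members that were lower in each mouse with either LDL, in these same libraries. Not far below were Ccl6 and Cxcl2 (0.550), Ccl3 and Ccl9 (0.526), Ccl3 and Cxcl1 (0.523) and Ccl3 and Ccl4 (0.520). The neighbours Ccl9 and Ccl6 had 0.347, and the lowest r was -0.601, for Ccl2 and Ccl6. These are descriptions over libraries that share mice, media and depth.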

How the data were processed

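RNA-Seq of bone marrow-derived macrophages from 3 WT and 3 KO mice in 3 media was analysed (18 libraries). Groups, replicate numbers and mice were taken from the sample labels, doses, times and age from the study's methods. The authors prepared SMARTer stranded total RNA libraries, aligned the reads to mm10 with STAR in the nf-core pipeline and deposited Salmon's estimated counts per gene (Ensembl release 93 transcriptome), not normalized; the sources used here give neither tool versions nor how strand was counted. Deposited columns of other samples numbered 0.

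The estimated counts were rounded to whole numbers. Genes were kept with filterByExpr (min.count 2, min.total.count 10), as in the study's methods, which left 12290 of 31053 genes. One model with the 6 groups was fitted to all libraries in edgeR 4.0.16 (R 4.3.3, limma 3.58.1, TMM factors from 0.956 to 1.03, quasi-likelihood F test, residual degrees of freedom 12, common BCV 0.152). P-values were adjusted over all genes tested by Benjamini-Hochberg, with a threshold of 0.05. The SE is the log2 fold change divided by the square root of F. With 1043492 to 1768816 counts a library, low genes carry counting error beside the spread between mice, and each count is a read, not a molecule. The test was checked on simulated counts before use.

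The 9 comparisons were AcLDL and OxLDL against control in each genotype, KO against WT in each medium, and the genotype difference in each response. Alternatives were DESeq2 1.42.0, other scaling and filters, only the libraries compared, leaving out each library, and the mouse as a block. The labels give the mouse of each library, and libraries of the same mouse deviated together from their group means (r from 0.0931 to 0.482 over 18 pairs, 8608 genes) more than those of other mice (-0.436 to 0.0791 over 36 pairs). No pair of replicates was alike within sampling noise (ratio of chi-square to degrees of freedom 2.03 to 12.7). The members, lists and tests were chosen with earlier results of these data known. Named were all members, of each list the genes past the threshold in any comparison (up to 8 by smallest p, otherwise the 3 with the highest mean CPM), and for members of at least 20 CPM on average the 3 genes with the highest r. Exons come from GENCODE M21 and promoters from RefSeq, aligned with Biopython 1.88; figures were drawn with matplotlib 3.10.9.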

Additional observations from a re-analysis of the deposited data

How the results depend on the processing

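The number of members called kept its value in WT AcLDL (0 of 8), in the 3 genotype comparisons and in both interactions (0 of 8 each) under every alternative run. In WT OxLDL (1 of 8) it was 2 without the filter, 2 with the mouse as replicate block and 0 when only the libraries compared were fitted, and it ran from 0 to 1 when libraries were left out in turn. In KO AcLDL (0 of 8) it was 1 with DESeq2, 2 without the filter, 2 with the replicate block and 2 with only the libraries compared. In KO OxLDL (1 of 8) it was 2 under each of these 4. The members concerned were Ccl9 and Cxcl2, and the cause of these shifts was not tested. No fold change of a called member turned its direction: of the refitted values, 971 stayed on their side of the threshold, 13 passed it and 5 fell short. Fitting the block raised the genes called among all tested from 58 to 265 in WT AcLDL, 165 to 539 in WT OxLDL, 64 to 307 in KO AcLDL and 285 to 882 in KO OxLDL, and from 0 to 5 in the AcLDL interaction. It changed no other call of a member. A block could not be used between genotypes, which have different mice. Without the filter the counts in the 4 LDL comparisons were 176, 337, 188 and 491, and with only the libraries compared 32, 62, 198 and 751. Between the genotypes, 1, 2 and 1 genes were called in control medium, AcLDL and OxLDL, against 28, 45 and 34 without the filter and 0, 4 and 0 with only the libraries compared, and 3 and 6 by DESeq2 in the first 2. In the AcLDL and OxLDL interactions the 0 genes became 18 and 15 without the filter, and in the former 1 with DESeq2 and 1 with only the libraries compared. Leaving out libraries gave 40 to 118, 91 to 244, 31 to 50 and 149 to 191 genes in the same order. Depth limits Ccl2, Ccl5, Ccl7, Cxcl1 and Cxcl3, at or near 3 counts in many libraries.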
